A study of Mus musculus with 6 samples.

Results

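The genes of sterol and fatty acid synthesis were followed in cultured mouse vascular smooth muscle cells after treatment with TWEAK. The list named 28 genes by symbol, 15 of a cholesterol arm and 13 of a fatty acid arm, and was matched to the gene symbols of the deposited table. Of these, 27 were found among the 14927 genes of the table, 14 in the cholesterol arm and 13 in the fatty acid arm. Hmgcs1, which encodes HMG-CoA synthase, was not analysed here. All 27 passed the filter on low values, which removed no gene.

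Cells make cholesterol from acetyl-CoA by way of mevalonate, the isoprenoid farnesyl diphosphate, squalene and lanosterol. Fatty acids are built from the same acetyl-CoA, which is carboxylated to malonyl-CoA, assembled into palmitate with NADPH, and then lengthened by elongases and given double bonds by desaturases. Both routes are controlled by the SREBP transcription factors. These are held in the endoplasmic reticulum by INSIG proteins when sterols are plentiful and travel to the nucleus when sterols fall, SREBP-2 acting mainly on sterol genes and SREBP-1c mainly on fatty acid genes. Dividing cells need both products for membranes, and in the artery wall cholesterol loading of smooth muscle cells is known from atherosclerosis.

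The cells were aortic smooth muscle cells of wild-type C57BL/6 mice at passages 3 to 7. Both groups were grown to confluence, deprived of serum for 24 h, and then held for another 24 h in 0.5% serum with vehicle or with 100 ng/mL recombinant TWEAK, a TNF-family cytokine. RNA of 3 vehicle and 3 TWEAK cultures was sequenced. The column headers number them as experiments 1 to 3, and separate animals are not stated as their source, so the spread between them may be technical. Reads summed over all genes of the table ranged from 62632273 to 82118717 per library. All values below are the authors' normalized counts, that is, reads divided by a size factor for each library. Log2 fold changes are on log2(normalized count + 1), from a limma fit to all genes with the experiment as a block, and a gene was called at a Benjamini-Hochberg adjusted p under 0.05.

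The cultures carried all 6 listed smooth muscle markers, and all 6 fell with TWEAK. Over all genes limma called 5.55% lower and 8.11% higher, the shares against which the limma counts of markers are read here. Their summed level was 318510 to 375677 normalized counts with vehicle and 189134 to 270863 with TWEAK. Markers of other cell types were in the table as well. No gene of the table was at 0 in any library, so a value above 0 does not set these markers apart. The 7 macrophage markers summed to 2941 to 49762 with vehicle and 3231 to 48343 with TWEAK, with experiment 1 highest, and none was called by limma. The authors' deposited table called 2 of these 7, both higher, against 18.1% of all genes in either direction. The 6 endothelial markers summed to 7069 to 48221 and 6325 to 42053, with experiment 2 highest, and none was called. The 6 adventitial fibroblast markers summed to 20961 to 41788 and 28362 to 61678, and 2 rose and 1 fell. Of 8 adipocyte markers 5 were analysed, at 5781 to 10464 and 5105 to 10087, and 1 of them, Pparg, fell. Of 6 Schwann cell markers 5 were analysed, at 26564 to 40119 and 16948 to 25319, and 2 fell. In bulk RNA fewer cells of a type and less RNA per cell cannot be told apart, and the part of these cells in the results below was not tested.

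Changes in the lipid synthesis genes were small and, where they were called, downward. Of the 27 genes, 5 fell and none rose, where 5.55% of all genes were called lower, 8.11% higher and 13.7% in either direction. The 5 were Sqle and Fdps in the cholesterol arm and Me1, Acss2 and Elovl1 in the fatty acid arm, with log2 fold changes between -0.46 and -0.24. They make up 18.5% of the 27. At an unadjusted p under 0.05, 10 of the 27 were lower, against 14.2% of all genes, and none was higher, against 16.1%. The median log2 fold change was -0.09 over the 27 genes and 0.02 over all genes. In the authors' deposited table, 4 of the 27 had an adjusted p under 0.05 against 18.1% of all genes, and all 4 were lower, against 7.31%. That table gave an adjusted p of 0.0672 for Fdps, the fifth.

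**Figure D1:**
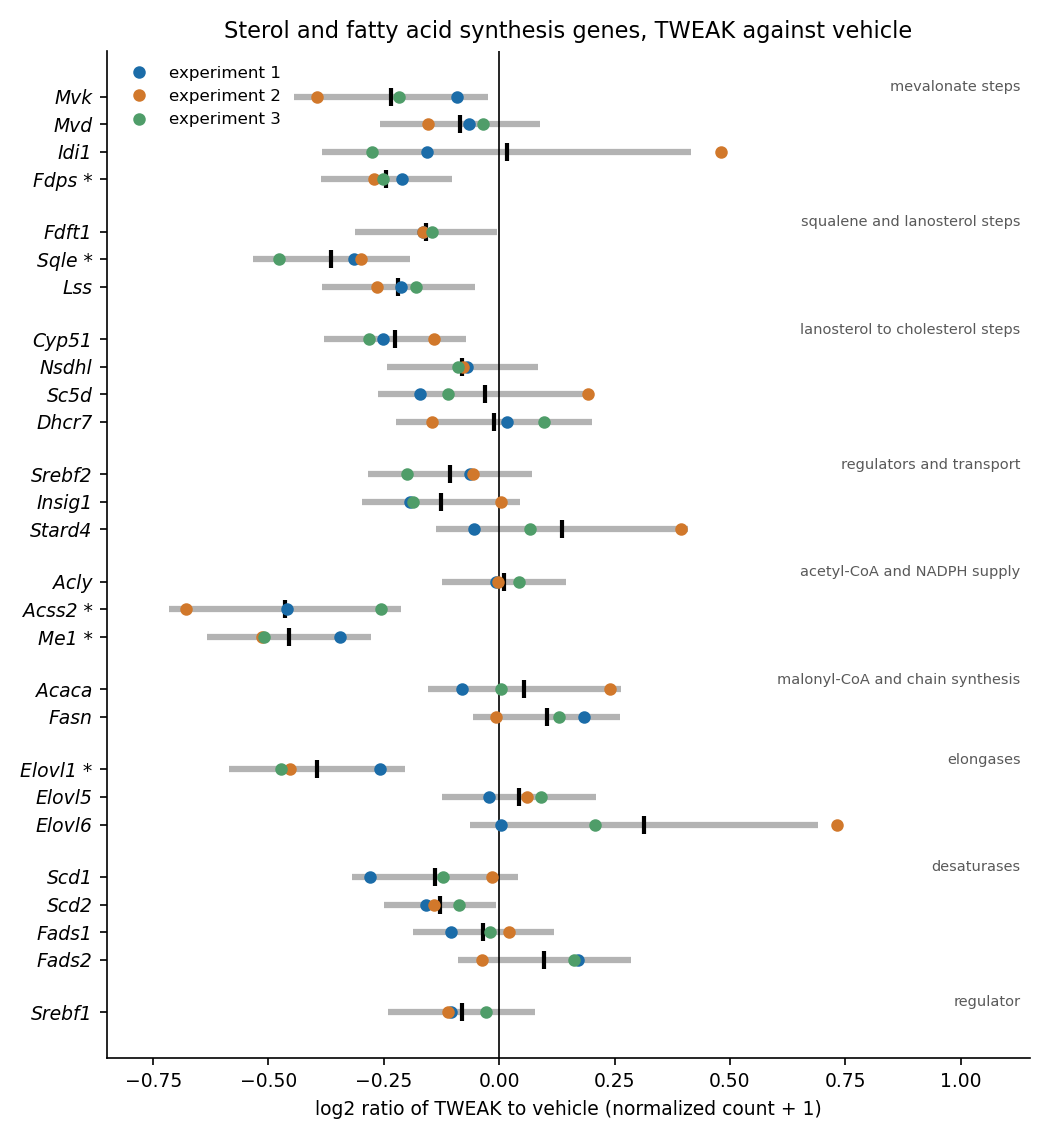
Log2 ratio of TWEAK to vehicle for each of the 27 genes, grouped by role. Dots are the 3 experiments, black ticks the limma log2 fold changes, grey bars their 95% confidence intervals, and asterisks mark an adjusted p under 0.05. The 5 marked genes lie left of 0 in every experiment, while Idi1, Elovl6 and Stard4 lie furthest right in experiment 2.

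The 5 calls depended on how variance was estimated and on which experiments were used. Leaving out experiment 1 or experiment 3 ended all 5 calls. Dropping the block did so too (limma adjusted p = 0.308 to 0.940 unpaired, with 0.0201% of all genes called). So did fitting limma without a trend and robust estimation (limma adjusted p = 0.0530 to 0.123, with 8.21% of all genes called). Both shares were below the 13.7% of the main fit, so calls were lost among all genes as well. The direction was downward for all 5 in each of the 15 alternative settings.

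The cholesterol arm as listed leaned downward, while the fatty acid arm was split. Log2 fold changes were below 0 for 12 of 14 cholesterol arm genes and for 7 of 13 fatty acid arm genes, where 47.7% of all genes were below 0. In all 3 experiments 9 of the 14 and 6 of the 13 were lower with TWEAK, against 27.0% of all genes. Such a lean was not particular to the cholesterol arm. Among the further pathway lists described below, the share below 0 ran from 42.9% for NADPH supply to 76.2% for fatty acid oxidation. Oxidation had 12 of 21 genes lower in all 3 experiments and a median log2 fold change of -0.12, beside -0.12 for the cholesterol arm. The lean also did not extend to the 13 other measured genes of sterol and isoprenoid synthesis. Of those, 8 were below 0, 4 were lower and 4 higher in all 3 experiments, and the median was -0.02. The median log2 ratio of the cholesterol arm was -0.16, -0.14 and -0.18 in experiments 1, 2 and 3, and that of the fatty acid arm was -0.10, -0.02 and -0.02. The cholesterol median minus the fatty acid median averaged -0.12 ± 0.05 (SD, n = 3 experiments), a difference that carries no test because the genes of each arm were chosen with earlier results known. Summed normalized counts of the cholesterol arm with TWEAK differed from vehicle by -12.4%, -9.10% and -14.7% in the 3 experiments. Those of the fatty acid arm, of which Scd2 alone made up 31.9%, differed by -6.70%, -4.83% and -3.18%, and neither sum was tested. In every experiment the drop of the cholesterol sum was the larger one.

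**Figure D2:**
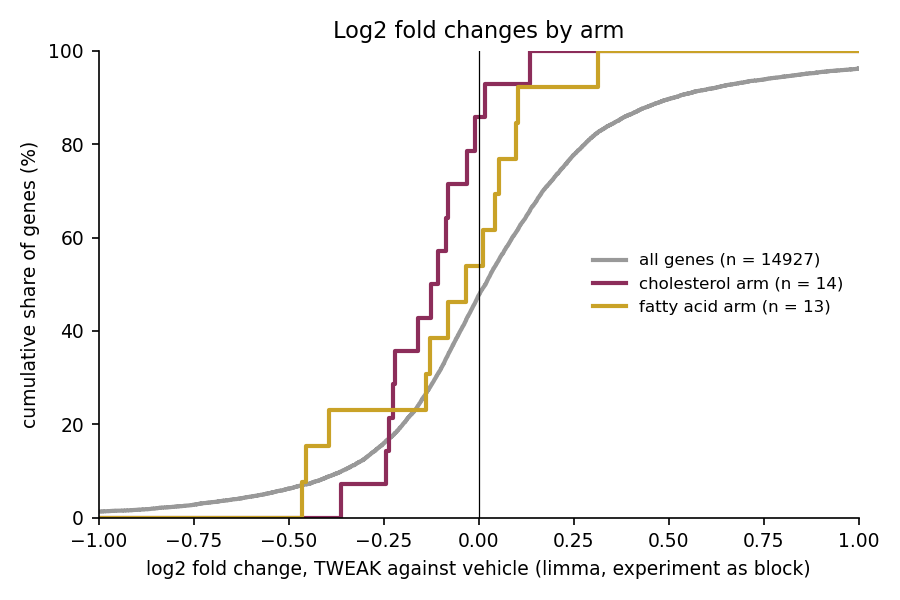
Cumulative share of genes by log2 fold change, TWEAK against vehicle, for all 14927 genes, the 14 genes of the cholesterol arm and the 13 genes of the fatty acid arm. The cholesterol curve lies left of the all-gene curve over most of its range, with a median of -0.12 against 0.02, while the fatty acid curve, with a median of -0.03, has 3 genes below -0.3 and then runs close to 0.

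Promoter sequence was read for the genes as a feature that the choice of genes did not use. RefSeq windows on GRCm38.p6, from 250 bases before to 50 bases after a start, were matched by symbol for 20 of the 27 genes; Fads1, Fdft1, Fdps, Scd1, Scd2, Sqle and Stard4 had none in use here. On either strand, the letters CCAAT, the core bound by the factor NF-Y, which acts beside SREBPs at sterol gene promoters, stood in windows of 17 of the 20 genes (85.0%) and of 42.5% of the 10828 genes of the table with a window. The letters GGGCGG, the core of an Sp1 site, were in 16 of 20 (80.0%) and in 66.7% of those genes. The longer sterol regulatory element TCACNCCAC was in none of the 20 and in 1.49% of the table's genes with a window, and its first 8 letters, TCACNCCA, tried after that result, were in 1 (Srebf2) and in 4.56%. These are matches of letters and not sites known to be bound.

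Windows of 2 genes that fell, Acss2 and Elovl1, and of 2 that were not called, Mvk and Fasn, are shown to compare them, 5′ to 3′ on the gene's strand with CCAAT or its complement ATTGG in capitals. They lie at chr2:155517793-155518092 on the plus strand for Acss2, the plus strand of chr4:118427843-118428142 for the upstream start of Elovl1, chr5:114444019-114444318 on the plus strand for Mvk and chr11:120824498-120824797 on the minus strand for Fasn.
Acss2: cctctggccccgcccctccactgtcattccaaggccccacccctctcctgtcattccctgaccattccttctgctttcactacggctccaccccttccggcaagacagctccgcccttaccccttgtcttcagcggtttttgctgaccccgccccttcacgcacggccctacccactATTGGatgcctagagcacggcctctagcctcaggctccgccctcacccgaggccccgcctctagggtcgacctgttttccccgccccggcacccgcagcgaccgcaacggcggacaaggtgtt
Elovl1: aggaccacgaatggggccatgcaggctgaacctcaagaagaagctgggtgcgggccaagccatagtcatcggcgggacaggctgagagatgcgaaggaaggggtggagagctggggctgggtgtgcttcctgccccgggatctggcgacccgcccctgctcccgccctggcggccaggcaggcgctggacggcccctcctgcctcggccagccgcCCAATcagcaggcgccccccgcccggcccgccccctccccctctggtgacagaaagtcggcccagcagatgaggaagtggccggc
Mvk: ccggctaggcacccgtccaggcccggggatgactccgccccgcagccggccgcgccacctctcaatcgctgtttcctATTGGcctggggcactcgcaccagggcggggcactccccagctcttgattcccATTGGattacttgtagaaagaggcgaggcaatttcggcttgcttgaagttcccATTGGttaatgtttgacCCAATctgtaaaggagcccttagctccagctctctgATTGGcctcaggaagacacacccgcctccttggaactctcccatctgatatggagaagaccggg
Fasn: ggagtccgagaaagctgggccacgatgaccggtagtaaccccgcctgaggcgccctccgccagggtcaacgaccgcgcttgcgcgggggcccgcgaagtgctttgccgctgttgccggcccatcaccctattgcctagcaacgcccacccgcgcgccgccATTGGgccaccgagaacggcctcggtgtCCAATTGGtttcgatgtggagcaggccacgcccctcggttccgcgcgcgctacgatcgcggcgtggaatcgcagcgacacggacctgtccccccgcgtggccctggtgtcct
In these windows Acss2 and Elovl1 each held 1 match, Mvk held 5 and Fasn held 3, of which the last 2 overlap. Elovl1 had no match at its second start downstream. Me1, which also fell, had no match at its upstream start and 1 at a second start downstream. Cyp51, Lss, Insig1 and Sc5d, which were not called, each held 1 match, as many as Acss2 and Elovl1.

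Among the listed members of the mevalonate steps, Fdps fell and the other 3 were not called. Pmvk, which also acts in these steps but was not a member, fell too and is described below. Fdps encodes farnesyl diphosphate synthase, which makes the last isoprenoid shared by sterols, dolichol and protein prenylation. It had 21279, 30345 and 19409 normalized counts with vehicle in experiments 1, 2 and 3, and 18387, 25132 and 16308 with TWEAK. Each TWEAK library was below the vehicle library of its experiment, but the groups overlapped because both libraries of experiment 2 stood above the others. The log2 fold change of -0.24 (SE 0.06, limma adjusted p = 0.0463) was close to the threshold, and the call was lost with cyclic loess, edgeR with TMM, DESeq2 and limma-voom (adjusted p = 0.0545 to 0.108).

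Mvk, mevalonate kinase, was lower in every experiment, with a log2 fold change of -0.23 (SE 0.08, adjusted p = 0.132). For Mvd, which decarboxylates mevalonate diphosphate, it was -0.09 (SE 0.07, adjusted p = 0.449). Idi1, isopentenyl diphosphate isomerase, had 11173, 3144 and 8455 normalized counts with vehicle and 10029, 4389 and 6984 with TWEAK, so that it was lower with TWEAK in experiments 1 and 3 and higher in experiment 2. Its log2 fold change was 0.02 (SE 0.16), and without experiment 2 it was -0.22 (limma adjusted p = 0.0176).

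The 3 enzymes that turn farnesyl diphosphate into lanosterol were lower in every experiment, and 1 of them, Sqle, was called. Sqle encodes squalene epoxidase, a rate-limiting enzyme of the sterol branch. It had 17267, 16761 and 15785 normalized counts with vehicle and 13887, 13613 and 11344 with TWEAK. The highest TWEAK library was below the lowest vehicle library, which held for 3 of the 27 genes (Sqle, Me1 and Elovl1) and for 7.42% of all genes in this direction. None of the 27 was higher without overlap, against 8.6% of all genes. Sqle fell by 22.3%, a log2 fold change of -0.36 (SE 0.07, adjusted p = 0.0257). Fdft1, squalene synthase, was at -0.16 (SE 0.06, adjusted p = 0.155), with nearly the same log2 ratio in each experiment, -0.16, -0.17 and -0.15. Lss, lanosterol synthase, was at -0.22 (SE 0.07, adjusted p = 0.0896).

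None of the 4 listed members between lanosterol and cholesterol was called. Cyp51, lanosterol demethylase, came closest. It had 22797, 26676 and 21120 normalized counts with vehicle and 19132, 24183 and 17362 with TWEAK, with a log2 fold change of -0.23 (SE 0.06, adjusted p = 0.0693). Nsdhl, a sterol dehydrogenase, was at -0.08, Sc5d, a sterol desaturase, at -0.03 and Dhcr7, the last reductase of the pathway, at -0.01, with adjusted p of 0.451 to 0.947. The 95% confidence interval of Dhcr7 ran from -0.22 to 0.20, so a change of the size seen in Sqle lay outside it.

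The sterol-sensing genes were not called. Srebf2, the gene of SREBP-2, had 5316, 5902 and 6091 normalized counts with vehicle and 5091, 5678 and 5300 with TWEAK (log2 fold change -0.11, SE 0.07, adjusted p = 0.366). Insig1, an SREBP target whose product retains SREBPs in the endoplasmic reticulum, had 19145, 22674 and 16819 with vehicle and 16752, 22720 and 14779 with TWEAK. It was lower in experiments 1 and 3 and level in experiment 2, with a log2 fold change of -0.13 (SE 0.07, adjusted p = 0.278), and was called at -0.19 without experiment 2. Stard4, a carrier of cholesterol between membranes, was at 0.14 (SE 0.11, adjusted p = 0.441).

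In the fatty acid arm, 2 of the 3 genes that supply acetyl-CoA and NADPH fell. Me1, cytosolic malic enzyme, which yields NADPH, had 10485, 9483 and 11278 normalized counts with vehicle and 8259, 6643 and 7923 with TWEAK, and the groups did not overlap. It fell by 27.1% (log2 fold change -0.46, SE 0.07, adjusted p = 0.0152). Acss2, which makes acetyl-CoA from acetate and is a known SREBP target, had 2755, 4249 and 2037 with vehicle and 2002, 2655 and 1706 with TWEAK. The groups overlapped across experiments, and the drop within experiments was uneven, with log2 ratios of -0.46, -0.68 and -0.26. Acss2 fell by 27.5% on average (log2 fold change -0.46, SE 0.10, adjusted p = 0.0396). Acly, ATP citrate lyase, which makes acetyl-CoA from citrate, was at 0.01 (SE 0.05, adjusted p = 0.909), with a 95% confidence interval of -0.12 to 0.14.

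The enzymes that build the chain were not called. Acaca, acetyl-CoA carboxylase, which makes malonyl-CoA, had 15213, 11069 and 11641 normalized counts with vehicle and 14381, 13077 and 11674 with TWEAK (log2 fold change 0.05, SE 0.08, adjusted p = 0.690). Fasn, fatty acid synthase, had 24120, 30600 and 24345 with vehicle and 27395, 30473 and 26647 with TWEAK (0.10, SE 0.06, adjusted p = 0.332). It was higher in experiments 1 and 3 and level in experiment 2. Its interval, -0.06 to 0.26, leaves out a drop as large as that of Me1 or Acss2. Srebf1, the gene of SREBP-1, had 10432, 11538 and 9277 with vehicle and 9710, 10679 and 9091 with TWEAK (-0.08, SE 0.06, adjusted p = 0.433).

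**Figure D3:**
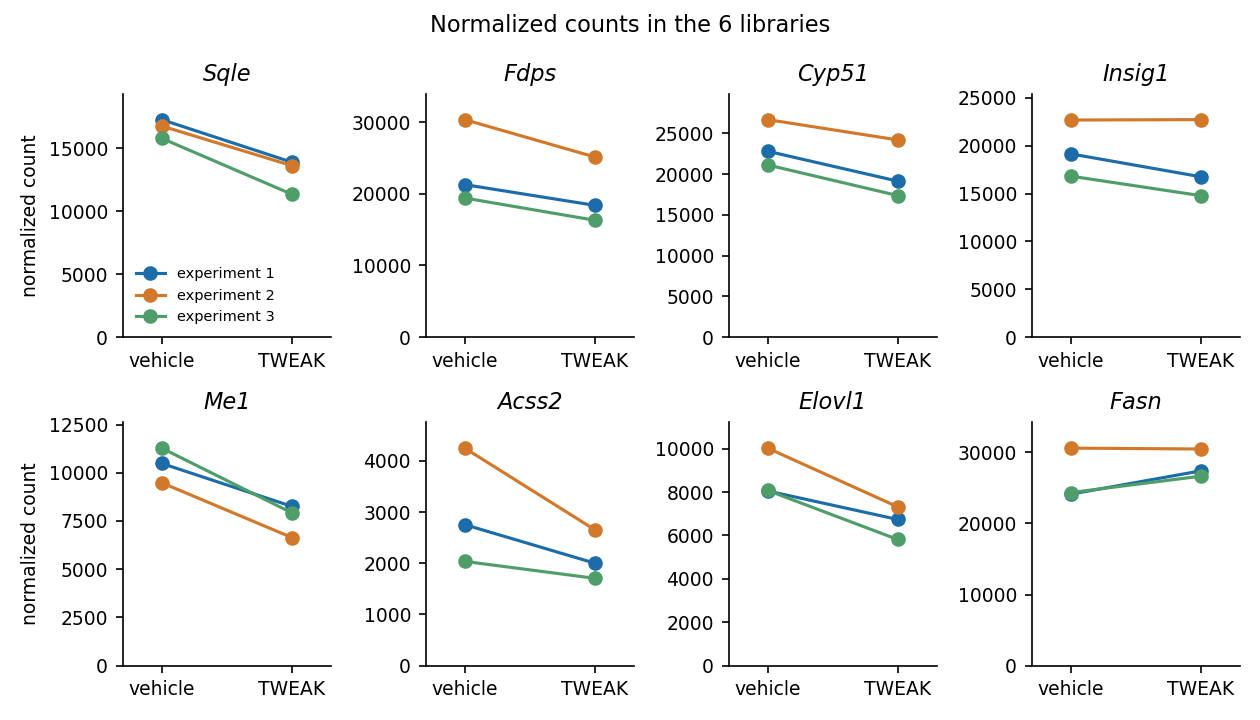
Normalized counts of 8 genes in the 6 libraries, with a line joining the vehicle and TWEAK library of each experiment and axes starting at 0. All 3 lines slope down for Sqle, Fdps, Cyp51, Me1, Acss2 and Elovl1, whereas the experiment 2 line is level for Insig1 and the lines of Fasn are level or slope up.

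The 3 elongases among the listed members differed from each other. Elovl1, which lengthens saturated chains to very long ones, had 8050, 10024 and 8074 normalized counts with vehicle and 6735, 7317 and 5813 with TWEAK, without overlap. It fell by 24.0% (log2 fold change -0.40, SE 0.08, adjusted p = 0.0284). Elovl5, which acts on polyunsaturated chains, was at 0.04 (SE 0.07, adjusted p = 0.693). Elovl6, which lengthens palmitate to stearate, had 5389, 1504 and 3020 normalized counts with vehicle and 5405, 2501 and 3486 with TWEAK, and its log2 ratios were 0.00, 0.73 and 0.21. Its log2 fold change was the highest of the 27 at 0.31, but with an SE of 0.15 it was not called (adjusted p = 0.227).

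None of the 4 desaturases among the listed members was called. Scd1, a stearoyl-CoA desaturase that makes oleate, had 27374, 27863 and 20769 normalized counts with vehicle and 22548, 27559 and 19080 with TWEAK (log2 fold change -0.14, SE 0.07, adjusted p = 0.255). Its neighbour and close relative Scd2 had 92220, 87283 and 64480 with vehicle and 82632, 79198 and 60747 with TWEAK (-0.13, SE 0.05, adjusted p = 0.148), and with cyclic loess its value was 0.00. Reads shared by the pair may have been split between them, since the counting method is not stated. Fads1 and Fads2, which desaturate polyunsaturated fatty acids, were at -0.03 and 0.10 (adjusted p = 0.736 and 0.422).

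Experiment 2 differed from the others in a way that touched the genes with a low GC content. Across the 14014 genes with an annotated transcript, the log2 ratio of TWEAK to vehicle was correlated with GC content at a Spearman rho of -0.45 in experiment 2, against 0.04 and -0.09 in experiments 1 and 3. This is a correlation across genes of the same pair of libraries and is given without a p. In experiment 2 the 3504 genes with the lowest GC, below 44.9%, had a median log2 ratio of 0.43, and the other genes -0.04. Among them were Idi1, Sc5d, Stard4, Elovl5 and Elovl6, and all 5 were higher with TWEAK in experiment 2. Once each library was corrected for GC content and transcript length, their log2 ratios in experiment 2 went from 0.48 to 0.03 for Idi1, from 0.19 to -0.27 for Sc5d, from 0.39 to -0.01 for Stard4, from 0.06 to -0.21 for Elovl5 and from 0.73 to 0.32 for Elovl6. The correction did not bring the experiments closer for every gene. Corrected ratios in experiments 1 and 3 were -0.05 and 0.08 for Elovl5. Me1 went from -0.51 to -0.80 in experiment 2, beside corrected ratios of -0.37 and -0.54 in experiments 1 and 3.

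**Figure D4:**
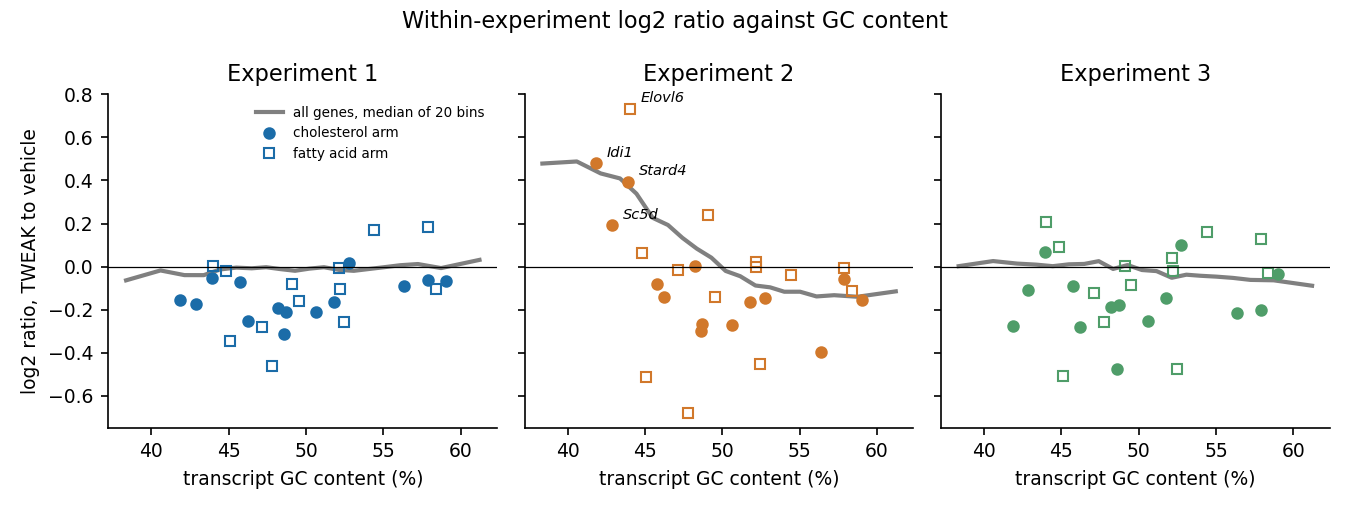
Log2 ratio of TWEAK to vehicle in each experiment against the GC content of the longest annotated transcript, with filled circles for the cholesterol arm, open squares for the fatty acid arm and a grey line for the median of all genes in 20 bins of equal size. The line is flat near 0 in experiments 1 and 3 and falls with GC content in experiment 2, where Idi1, Stard4 and Elovl6 lie at 0.39 to 0.73.

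After that correction 11 of the 27 genes were called, all lower, against 13.7% of all genes called lower and 26.2% in either direction. They were the 5 above with Fdft1, Lss, Cyp51 and Sc5d of the cholesterol arm and Scd1 and Scd2, with log2 fold changes from -0.57 (Me1) to -0.17 (Fdft1). Without experiment 2, 10 were called, all lower, against 13.2% of all genes called lower and 26.1% in either direction. They were the 5 with Idi1, Lss, Cyp51, Insig1 and Scd1. By either route the called share rose in all genes as well.

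Levels also differed among experiments apart from the treatment. By limma's test among experiments, 16 of the 27 genes passed, 10 of the cholesterol arm and 6 of the fatty acid arm, against 48.6% of all genes. With vehicle, 18 of the 27 genes were highest in experiment 2, against 45.1% of all genes, and 6 were lowest there, against 38.8%. The vehicle level varied most for Elovl6 and Idi1, whose highest library was 3.58 and 3.55 times their lowest, and for both genes experiment 2 was the lowest. Acss2 varied 2.09-fold and Sqle 1.09-fold. Per kilobase of the longest annotated transcript, the mean level was highest for Scd2 (14255 normalized counts per kb), Acly (7422) and Fdps (7386) and lowest for Stard4 (340.1).

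Other genes of the pathways were listed by function, and their counts are read against the 5.55% of all genes called lower, 8.11% called higher and 13.7% called in either direction. The called share was 18.2% for SREBP processing and lipoprotein uptake, 16.7% for sterol efflux and trafficking and 14.3% for NADPH supply, each a matter of 1 to 3 genes and near the share of all genes. It was 5.0% to 9.52% for the other 4 lists. Of 13 other measured genes of sterol and isoprenoid synthesis, 1 fell and none rose. This was Pmvk, phosphomevalonate kinase, which had 2404, 3863 and 1937 normalized counts with vehicle and 2043, 2734 and 1449 with TWEAK (log2 fold change -0.38, SE 0.08, adjusted p = 0.0377). The authors' deposited table called 4 of these 13 genes, 2 lower and 2 higher, against 18.1% of all genes in either direction. Without overlap of the groups, 3 of the 13 were higher and 1 was lower, against 8.6% and 7.42% of all genes. Of 11 genes of SREBP processing and lipoprotein uptake that are reported, 1 fell and 1 rose. Mylip, a ubiquitin ligase gene, fell (-0.45, SE 0.10, adjusted p = 0.0462), and Lpin1, a phosphatidate phosphatase, rose (0.37, SE 0.07, adjusted p = 0.0262).

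Of 18 genes of sterol efflux, esterification and trafficking, 2 fell and 1 rose. Apoe, the lipid carrier apolipoprotein E, fell by 0.43 on the log2 scale (SE 0.10, adjusted p = 0.0488) and Pltp, which transfers phospholipid between lipoproteins, fell by 0.36 (SE 0.08, adjusted p = 0.0349). Ch25h, which makes 25-hydroxycholesterol, an oxysterol that holds back SREBP processing, rose from 1045 ± 617 to 1756 ± 699 normalized counts (SD, n = 3), a log2 fold change of 0.84 (SE 0.15, limma adjusted p = 0.0231). It was higher with TWEAK in every experiment, by 1.03, 0.43 and 1.06 on the log2 scale.

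Of 20 other measured genes of fatty acid synthesis, elongation and desaturation, 1 fell, the elongation dehydratase gene Ptpla (-0.57, SE 0.08, adjusted p = 0.0124). Of 16 genes of fatty acid activation and glycerolipid synthesis, 1 rose, the acyl-CoA synthetase gene Acsl5 (0.29, SE 0.06, adjusted p = 0.0400). Of 7 genes of NADPH supply, 1 rose, the folate enzyme gene Mthfd1 (0.40, SE 0.07, adjusted p = 0.0245). Of 21 measured genes of mitochondrial fatty acid oxidation, 2 fell, Cpt2, a carnitine palmitoyltransferase (-0.36, SE 0.08, adjusted p = 0.0378), and Etfb, an electron transfer flavoprotein subunit (-0.36, SE 0.08, adjusted p = 0.0431). The medians of these 7 lists ran from -0.12 for oxidation to 0.03 for NADPH supply, beside 0.02 over all genes.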

How the data were processed

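RNA of 6 libraries was sequenced, 3 with vehicle and 3 with TWEAK. Per the file headers, the deposited table holds the authors' normalized counts per library (a signal: reads divided by 1 size factor), the authors' log2 fold change with its SE, a test score, and the authors' p-value and adjusted p-value. DESeq2 is named in the submitters' processing notes without a version; the sources used here do not name the aligner, counter, strand use, build or annotation, so overlapping and antisense genes cannot be told apart. The normalized counts were whole multiples of 1 read in 100% of values (tolerance 0.01), so reads were recovered for count models. Summed over the genes of the table, the smallest library had 62632273 reads.

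The main test was limma 3.58.1 in R 4.3.3, two-sided, on log2(normalized count + 1). Genes needed a mean of 1 or more, and the fit was made with an intensity trend, robust estimation and the experiment number as a block. The block rests on the experiment numbers in the headers. Deviations from the group means correlated across genes at 0.879, 0.868 and 0.734 for libraries sharing a number and at -0.760 to -0.126 otherwise. A DESeq2 1.42.0 fit with the block called 2702 genes, and the authors' table has 2702, of which 2666 are shared. No 2 libraries were duplicates (lowest chi-square per degree of freedom 90.7). Alternatives included edgeR 4.0.16. The fit was also run on simulated data, and the outcome is not given here. Those data had the same dispersion for every gene and no GC effect, so they do not cover the shift in experiment 2. GC content and length were those of the longest GENCODE M21 transcript, found for 93.9% of genes. Promoter windows are from RefSeq on GRCm38.p6, which may not be the authors' build.

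The members and lists were chosen with earlier results of these data known. Values in every library are given for Srebf1, Srebf2, Insig1, Sqle, Fasn, Acaca, Scd1 and Scd2 and for called members. Those of Idi1, Cyp51 and Elovl6 were added after they were seen. Of other lists, up to 4 called genes are named. A result of 1 of these lists is not reported here, and its list is counted without it.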

Additional observations from a re-analysis of the deposited data

How the results depend on the processing

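Counts are given as all genes, cholesterol arm and fatty acid arm, against 2039, 2 and 3 with the experiment as a block. Pseudocounts of 0.5 and 5, no filter on low values and a mean of at least 50 moved none of the 3 counts by over 1.5 times, and neither did edgeR with upper quartile scaling. Without the replicate block limma called 3, 0 and 0 (1 and 2 members at an unadjusted p under 0.05). Without trend and robust estimation it called 1225, 0 and 0 (4 and 3 unadjusted). With cyclic loess, edgeR with TMM, DESeq2 and limma-voom the cholesterol arm had 1 call, Sqle, and the fatty acid arm kept Me1, Acss2 and Elovl1. With the GC and length correction the counts were 3673, 6 and 5. Leaving out 1 experiment gave 666 to 3902 genes, 0 to 6 cholesterol arm members and 0 to 4 fatty acid arm members. The lowest member counts came without experiment 1 (3 and 4 members at an unadjusted p under 0.05) and without experiment 3 (2 and 3), and the highest without experiment 2, where Idi1 turned from 0.02 to -0.22. Over the 3 experiments left out in turn, Idi1 ranged from -0.22 to 0.16. The cause of these shifts was not tested. No scaling moved the median of all genes by over 0.1 on the log2 scale.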
